A study of Mus musculus with 5 samples.

Results

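The D and E cyclins, the kinases they switch on and the phosphatase Cdc25a drive a cell through G1, the phase before DNA is copied. The set described here is 9 genes of the 24594 in the deposited table, matched by symbol: Ccnd1, Ccnd2 and Ccnd3 (cyclins D1, D2 and D3), Ccne1 and Ccne2 (cyclins E1 and E2), Cdk2, Cdk4, Cdk6 and Cdc25a. All 9 were found and all 9 passed the filter on low values. Messenger RNA was sequenced from mouse retinal cells in 5 libraries. Per the labels' protocols, plasmids were electroporated into the eyes of living pups at postnatal day 0, the retinas were taken 4 days later, and cells with GFP were sorted, named RPCs (retinal progenitor cells) in the labels. The 2 control libraries are labelled as given CAG-GFP and the 3 libraries labelled Zfp292-OE as given CAG-Zfp292; CAG is a strong promoter active in most cell types, so expression is not restricted to 1 cell type. How cells given CAG-Zfp292 came to be GFP-positive, the strain and sex of the pups, and whether animals were pooled are not given in the sources used.

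D cyclins are the link between growth signals and the cell cycle. They bind Cdk4 and Cdk6, and the active pairs phosphorylate the retinoblastoma protein Rb1 and its relatives, which lets E2F transcription factors switch on the genes of DNA replication. The E cyclins are themselves E2F targets, and with Cdk2 they complete Rb phosphorylation and start replication; Cdc25a removes the inhibitory phosphates from the Cdks. In the mouse retina cyclin D1 is the main D cyclin of dividing progenitors, and mice without it have small, thinly populated retinas.

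The libraries held 103096224 to 137683716 reads assigned to genes, and the values below are normalised read counts, that is, reads divided by 1 factor per library. Zfp292 itself, which checks the labels, read 13288 and 14756 in control libraries 1 and 2 and 14631, 13197 and 15534 in Zfp292-OE libraries 1, 2 and 3 (adjusted p = 0.87, limma). The groups overlapped: Zfp292 messenger RNA was not measurably higher, and every direction below follows the labels alone. Of 12 markers of retinal progenitors, all had reads in every library, 4 were higher and 1 was lower in the Zfp292-OE libraries, and their summed count was 230602 and 254678 in controls against 295070 to 317712. All 10 rod markers were lower, with sums of 580602 to 712989 in controls against 154855 to 166466. The sorted cells thus held rod messenger RNA beside that of progenitors, in amounts that moved with the groups. In such bulk samples fewer cells of a type and less RNA per cell cannot be told apart. The labels do not say whether the libraries within a group are from different animals, so the p-values cover the spread between these samples only, and that spread may be technical.

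Stretches upstream of the transcription start are shown for members that rose and for Cdc25a, which did not, since E2F factors act at promoters of this kind. RefSeq windows (GRCm38.p6, 250 bases before to 50 after a start) were matched for 6 of the 9 members, and not for Ccnd1, Ccnd2 and Ccne2. Windows were searched on both strands for the E2F letters TTTGGCGC, TTTCGCGC, TTTCCCGC and TTTGCCGC, the Sp1 letters GGGCGG, the NF-Y letters CCAAT, the letters TTTGAA of the cell cycle element CHR, and the E-box CACGTG, which reads the same on both strands and was added after the sequences were seen. No string contains another, though matches can overlap. In the sequences all matches to the E2F, Sp1, NF-Y and E-box letters, on either strand, are in capitals. The first 3 lines are parts of the upstream windows that lie outside annotated exons, and the last 2 are sites of 30 bases in which only the E2F letters are in capitals.
Cdk4 upstream, chr10:127063285-127063533, + strand: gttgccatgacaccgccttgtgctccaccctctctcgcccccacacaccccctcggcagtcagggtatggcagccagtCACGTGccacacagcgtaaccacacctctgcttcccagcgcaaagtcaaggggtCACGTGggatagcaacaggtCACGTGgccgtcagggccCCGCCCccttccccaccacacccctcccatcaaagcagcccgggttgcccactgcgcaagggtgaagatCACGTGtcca
Cdk2 upstream, chr10:128705052-128705179, - strand: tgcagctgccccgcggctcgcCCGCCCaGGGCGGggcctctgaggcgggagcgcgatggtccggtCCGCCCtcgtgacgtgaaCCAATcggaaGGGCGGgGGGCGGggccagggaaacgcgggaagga
Ccne1 upstream, chr7:38107535-38107740, - strand: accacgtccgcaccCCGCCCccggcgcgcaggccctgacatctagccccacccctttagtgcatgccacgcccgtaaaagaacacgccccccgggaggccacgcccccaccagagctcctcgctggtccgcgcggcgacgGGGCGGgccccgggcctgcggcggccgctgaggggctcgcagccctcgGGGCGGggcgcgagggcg
Cdk2 E2F letters, chr10:128705173-128705202, - strand: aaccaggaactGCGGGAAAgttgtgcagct
Cdc25a E2F letters, chr9:109875501-109875530, + strand: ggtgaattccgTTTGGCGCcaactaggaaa

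Any of the 4 E2F strings was present in 2.26% of the 32851 mouse promoter windows of this length. Among the members' windows they were found once in Cdk2, 140 bases before the start, and once in Cdc25a, 67 bases before it. The Cdk2 letters lie upstream of the 128 exon-free bases shown, on the side where annotated exon sequence begins. The Cdk2 window held the Sp1 letters 6 times and CCAAT once, against shares of 35.7% and 37.4% of all windows with at least 1 match. The Ccne1 window held 4 Sp1 matches, of which the last crosses the end of the stretch shown, and none of the other letters. Cdk4 had the E-box 4 times, at 172, 118, 98 and 11 bases before the start, where 7.15% of all windows have it at all, and 3 Sp1 matches. Sp1 matches at base 2 of Cdk2 and at bases 13 and 18 of Cdk4, counted from the start, lie past the stretches shown. Cdk6 had 1 E-box, and the 2 Ccnd3 windows had 2 Sp1 matches each, with CCAAT in 1 of them. The Cdc25a window also held 2 Sp1 and 2 NF-Y matches. TTTGAA was in no member's window and in 17.9% of all windows. These matches describe letters, not bound sites. Of the 2 genes with E2F letters in the window, Cdk2 was 3.84-fold higher and Cdc25a was not detectably changed. With windows for 6 of the 9 members, and none for Ccnd1, Ccnd2 or Ccne2, whether letters went with the change was not tested.

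Messenger RNA of cyclin D1, both E cyclins, Cdk2 and Cdk4 rose in the libraries labelled Zfp292-OE, cyclin D2 fell, and cyclin D3, Cdk6 and Cdc25a did not pass the test. The rises ran from 1.76-fold (Cdk4) to 5.11-fold (Ccne2). In limma, fitted to log2(value + 1) of all 16316 tested genes with a Benjamini-Hochberg adjusted p below 0.05, 5 of 9 members were called higher and 1 lower. Over all tested genes 17.4% were called, 10% higher (1632) and 7.38% lower (1204); with libraries scaled to equal totals, which shifted the all-gene median log2 fold change from -0.06 to -0.27, the split was 913 and 1988 and the member counts stayed at 5 and 1. The median log2 fold change of the 9 members was 0.81, against -0.06 for all tested genes. For the 6 called members no control value lay within the range of the Zfp292-OE libraries, and for the other 3 the groups overlapped; 49.9% of all tested genes showed no overlap, 24.3% higher and 25.7% lower. edgeR and DESeq2 on the recovered reads each called the same counts of 5 members higher and 1 lower, where edgeR called 8.28% of all genes higher and 7.78% lower and DESeq2 14.6% and 11.5%. These fold changes are differences of mean logs. The calls need both controls: with either control library left out limma called 1 gene of all those tested and 0 members (adjusted p = 0.054 to 0.13 for the 5 that rose), although each of those 5 kept an unadjusted p of 0.0078 or less in all 5 fits that left out a library.

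**Figure D1:**
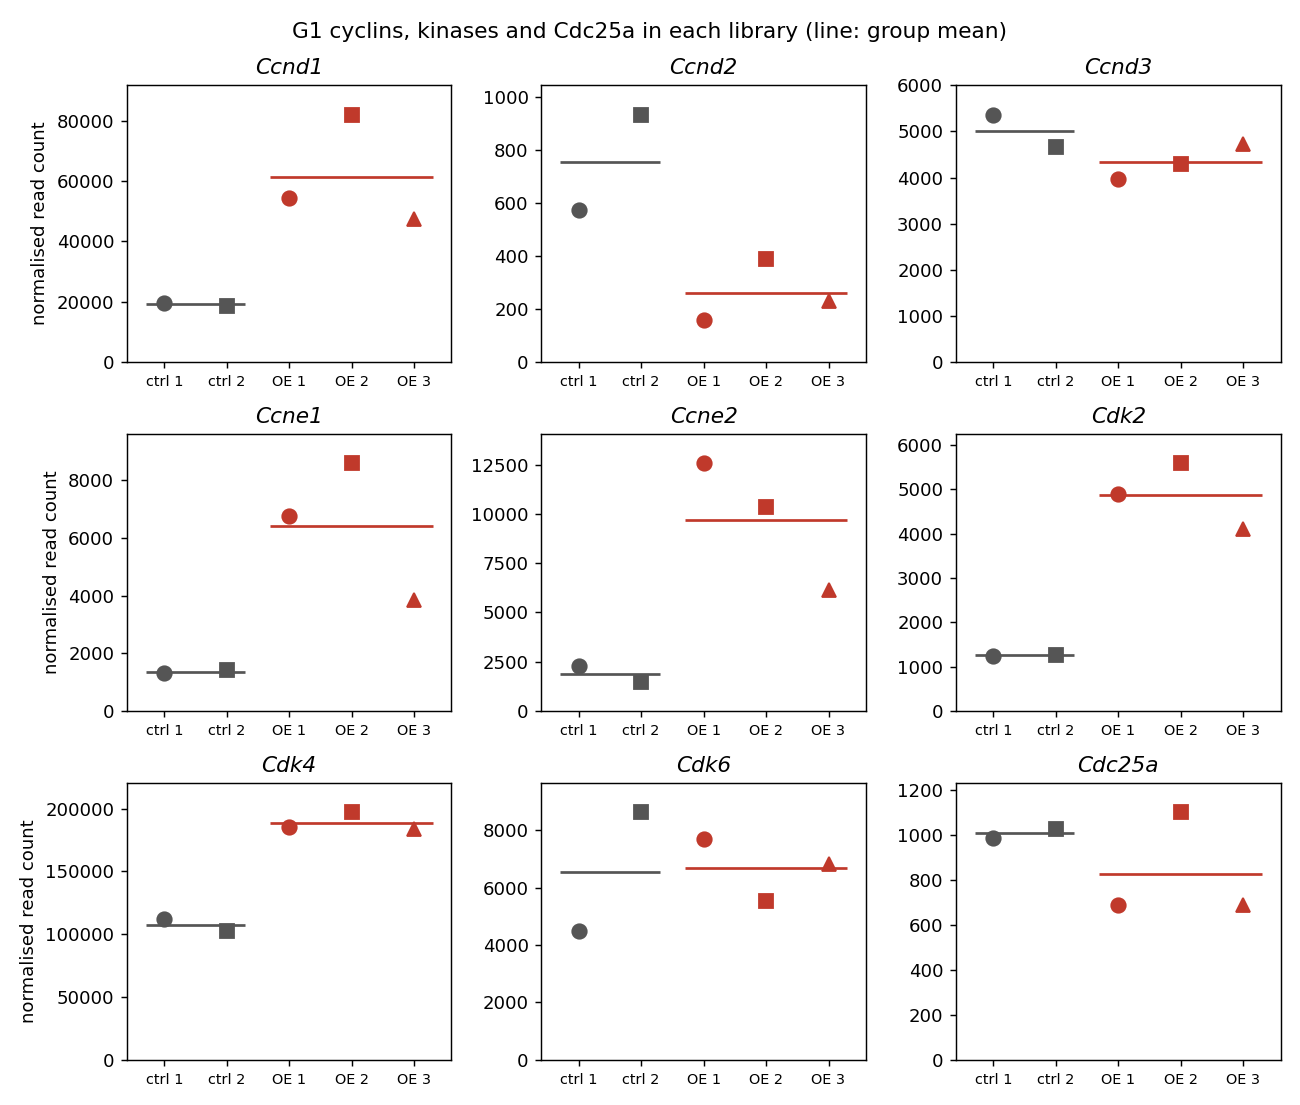
Normalised read count (vertical axis, linear from 0, a separate scale for each gene) of the 9 genes in each of the 5 libraries; grey points are control libraries 1 and 2, red points Zfp292-OE libraries 1 to 3, and lines mark group means. Ccnd1, Ccne1, Ccne2, Cdk2 and Cdk4 sit higher in every Zfp292-OE library than in either control, Ccnd2 sits lower, and the groups overlap for Ccnd3, Cdk6 and Cdc25a.

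Among the D cyclins the 3 genes went different ways. Ccnd1 (Entrez 12443, GRCm38 chromosome 7, 144929931 to 144939831, - strand) read 19732 and 18547 in control libraries 1 and 2 and 54303, 81971 and 47311 in Zfp292-OE libraries 1, 2 and 3. The lowest Zfp292-OE library thus stood above both controls, and library 2 stood well above the other two of its group. Controls averaged 19140 ± 838 (SD, n = 2) and the Zfp292-OE libraries 61195 ± 18329 (SD, n = 3). The gene rose 3.11-fold (log2 fold change 1.64, SE 0.21, limma adjusted p = 0.0012). Exons of LTO1 on the opposite strand cover 23.4% of the exon bases of Ccnd1, and the sources used here do not say whether counting used strand; LTO1 itself had 2714 to 3244 normalised reads in the 5 libraries.

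Ccnd2 (Entrez 12444, chromosome 6, 127125162 to 127152188, - strand), the cyclin D of many other dividing neural precursors, was low throughout. It read 574 and 933 in controls and 160, 389 and 231 in Zfp292-OE libraries 1, 2 and 3. The closest pair, control 1 and Zfp292-OE library 2, was separated by less than the gap between the 2 controls. Ccnd2 fell, to 0.333-fold (log2 fold change -1.59, SE 0.48, limma adjusted p = 0.049), just inside the threshold. That call was lost in 8 of 16 alternatives (adjusted p from 0.015 to 0.35 over all 16), among them without Zfp292-OE library 1 (0.11) or library 3 (0.083). Without control library 2 the log2 fold change was -1.24 and the unadjusted p 0.12.

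Marker lists of other cells also differed between libraries, where limma called 7.38% of all tested genes lower. Ccnd2 was highest in control 2, as were the sums of microglial, astrocyte and Muller glia markers. Sums of pericyte, bipolar and cone markers were instead higher in control 1 than in control 2. The 9 microglial markers summed to 2704 and 10035 in the controls and 2250, 3763 and 345 in Zfp292-OE libraries 1, 2 and 3, with Csf1r, Tmem119 and Ptprc at 0 in library 3; none of the 9 was called. The 6 astrocyte markers summed to 52930 and 58427 against 21881, 12825 and 26587, with 4 of 5 tested called lower. Pericyte markers summed to 2958 and 1172 against 189, 233 and 390, with 4 of 6 tested called lower. Of 8 markers of Muller glia 4 were called lower and 1 higher, with sums of 608995 and 761117 against 374487, 315402 and 389501. Of 8 bipolar cell markers 7 were called lower, while the sum of all 8, 182947 and 134953 against 120991, 139284 and 207362, overlapped between groups. Most of that sum in every library was Otx2, the marker not called, at 156329 and 110863 against 117569, 134300 and 203715. The overlap thus reflects Otx2 and not the markers called lower. Vsx1, Grm6 and Bhlhe23 read 1020 to 4002 in controls and 0 to 41 in the Zfp292-OE libraries. Of 7 cone markers 3 were called lower, with sums of 76860 and 58418 against 64459, 55613 and 28580. The part of these cells in the lower Ccnd2 was not tested.

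Ccnd3 (Entrez 12445, chromosome 17, 47505051 to 47599689, + strand), the D cyclin often kept by cells leaving the cycle, read 5365 and 4670 in controls and 3974, 4305 and 4729 in Zfp292-OE libraries 1, 2 and 3. Library 3 lay between the controls. Its log2 fold change was -0.21 (SE 0.17, adjusted p = 0.43 in limma), with a 95% interval from -0.60 to 0.18, which leaves room for a fall to 0.660-fold and for little rise. Of the 50-base words in its annotated transcripts 1.99% also occur in other genes, 24 in number. This was the highest such share of the 9 members, and 0% do so for Ccnd1 and Ccnd2.

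The make-up of the D cyclin pool moved accordingly. Levels of different genes were compared as counts per kb of the longest annotated coding transcript (GENCODE M21). On that scale Ccnd1 made up 66.7% and 67.8% of D cyclin messenger RNA in the controls and 88.4%, 91.3% and 84.8% in Zfp292-OE libraries 1, 2 and 3. Ccnd3 made up 32.1% and 30.2% in controls against 11.4%, 8.48% and 15.0%, while Ccnd2 stayed at or under 2.01% in all 5 libraries. With all annotated exons as the length, the share of Ccnd1 was 86.2% in both controls and 94.7% to 97.0% in the others, so its level rests on the length used, while the groups stayed apart on both. Summed over the 3 genes, D cyclin counts per kb went from 7906 and 7317 to 16425, 24016 and 14924.

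**Figure D2:**
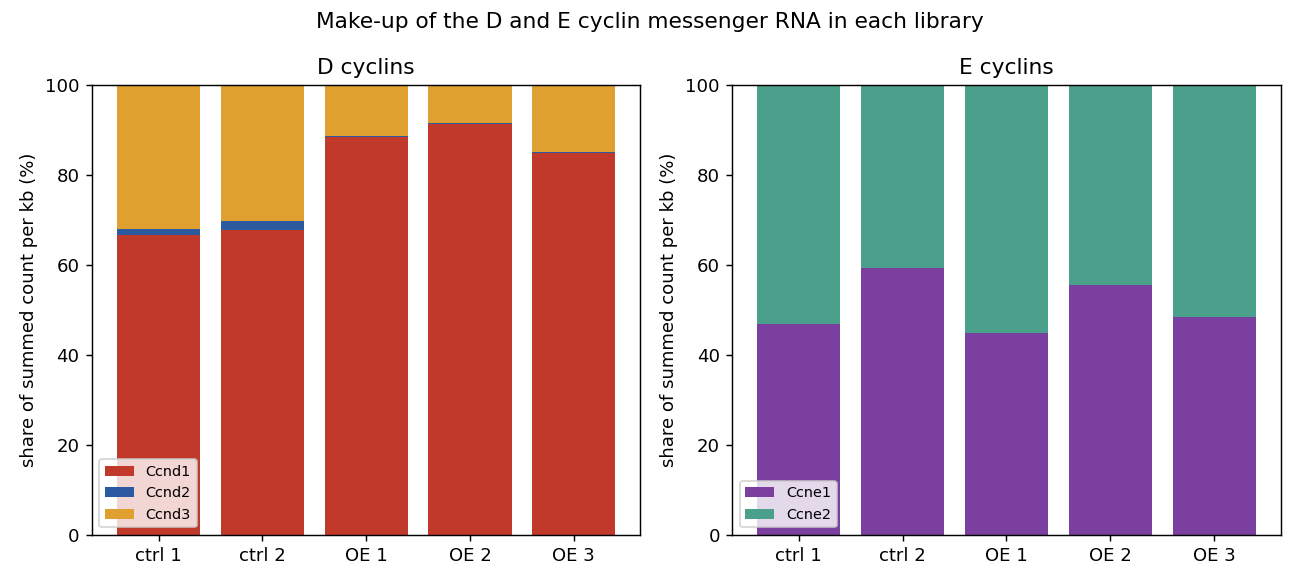
Stacked bars of the share (%) of each gene in the summed normalised count per kb of D cyclins (left) and E cyclins (right), for control libraries 1 and 2 and Zfp292-OE libraries 1 to 3. Ccnd1 goes from 66.7% and 67.8% to 84.8% or more, while the share of Ccne1 lies between 44.8% and 59.3% in both groups.

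Ratios within a library do not depend on how libraries were scaled. The log2 ratio of Ccnd1 to Ccnd3 was 1.88 and 1.99 in the controls and 3.77, 4.25 and 3.32 in Zfp292-OE libraries 1, 2 and 3, a difference of group means of 1.85. For Ccnd1 to Ccnd2 the difference was 3.22, and for Ccnd2 to Ccnd3 it was -1.37, in both cases without overlap. An exact two-sided permutation test over libraries gave p = 0.2 for each, the smallest that 2 against 3 libraries allow, and 0.3 after adjustment over the 6 ratios computed; this design cannot reach the threshold.

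Both E cyclins rose more than cyclin D1 did on the log2 scale, though that difference was not tested. Ccne1 (Entrez 12447, chromosome 7, 38097984 to 38107490, - strand) read 1327 and 1409 in controls and 6775, 8578 and 3838 in Zfp292-OE libraries 1, 2 and 3. Its controls were nearly equal, while the Zfp292-OE libraries spread widely and library 3 was lowest. The gene rose 4.43-fold (log2 fold change 2.15, SE 0.30, limma adjusted p = 0.0017).

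Ccne2 (Entrez 12448, chromosome 4, 11190433 to 11204779, + strand) read 2267 and 1452 in controls and 12559, 10352 and 6142 in Zfp292-OE libraries 1, 2 and 3. Every Zfp292-OE library was again above both controls, with library 3 lowest and library 1 highest. Its rise was 5.11-fold (log2 fold change 2.35, SE 0.30, limma adjusted p = 0.0011). The value lay above that of Ccne1 with all libraries and below it without control library 2 (2.03 against 2.19). Exons of Ints8 on the opposite strand cover 17.4% of the exon bases of Ccne2. Ints8 read 6384 and 5932 in controls and 6661, 7291 and 9283 in Zfp292-OE libraries 1, 2 and 3, higher without overlap. The part of Ints8 in the Ccne2 values was not tested.

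The 2 E cyclins kept similar shares of their pool. Per kb, Ccne1 was 46.8% and 59.3% of E cyclin messenger RNA in the controls and 44.8%, 55.5% and 48.4% in Zfp292-OE libraries 1, 2 and 3. The log2 ratio of Ccne1 to Ccne2 differed by -0.21 between the groups, with overlap (exact permutation p = 0.6), and by 0.16 without control library 2, so no direction can be read. Together they went from 1418 and 1188 counts per kb to 7565, 7733 and 3962.

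Of the kinases, Cdk2 and Cdk4 rose and Cdk6 did not pass. Cdk2 (Entrez 12566, chromosome 10, 128697938 to 128705051, - strand), the partner of the E and A cyclins, read 1250 and 1260 in controls and 4900, 5586 and 4107 in Zfp292-OE libraries 1, 2 and 3. The controls nearly coincided, and the lowest Zfp292-OE library stood far above them. Controls averaged 1255 ± 6.99 (SD, n = 2) and the Zfp292-OE libraries 4864 ± 740 (SD, n = 3). The rise was 3.84-fold (log2 fold change 1.94, SE 0.20), and its limma adjusted p of 0.00052 was the smallest among the members.

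Cdk4 (Entrez 12567, chromosome 10, 127063535 to 127067288, + strand), the main partner of the D cyclins here by level, read 112358 and 102616 in controls and 185156, 196993 and 183755 in Zfp292-OE libraries 1, 2 and 3. Its libraries were tightly grouped on both sides. The rise was 1.76-fold (log2 fold change 0.81, SE 0.13, limma adjusted p = 0.0039), the smallest of the 5. Its lowest value over 16 alternatives was 0.54, after quantile normalization, still a call (adjusted p = 0.012). Exons of Tspan31 on the opposite strand cover 19.7% of the exon bases of Cdk4. Tspan31 read 45530 and 34954 in controls and 50221, 46942 and 49894 in Zfp292-OE libraries 1, 2 and 3. That was less than Cdk4 in every library, but also higher in the Zfp292-OE libraries without overlap. The part of Tspan31 in the Cdk4 values was not tested.

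Cdk6 (Entrez 12571, chromosome 5, 3341004 to 3531008, + strand), the other D cyclin kinase, read 4491 and 8629 in controls and 7715, 5547 and 6817 in Zfp292-OE libraries 1, 2 and 3. All 3 Zfp292-OE values lay between the 2 controls. The log2 fold change was 0.09 (SE 0.26, limma adjusted p = 0.84), with a 95% interval from -0.50 to 0.68, and its sign changed under 5 of 16 alternatives. Control 2, where Cdk6 was highest, also had the highest sums of microglial, astrocyte and Muller glia markers given above. Cdk6 was lowest in control 1, where none of these sums was lowest. The part of these cells in the Cdk6 values was not tested.

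By level per kb, Cdk4 stood far above its relatives: it made up 97.1% to 98.4% of the messenger RNA of the 3 kinases in all 5 libraries. Cdk2 made up 0.934% and 1.02% in controls and 2.19%, 2.35% and 1.86% in Zfp292-OE libraries 1, 2 and 3. The log2 ratio of Cdk2 to Cdk4 was 1.13 higher in the Zfp292-OE libraries without overlap (exact permutation p = 0.2), while that of Cdk6 to Cdk4 differed by -0.72 with overlap (exact permutation p = 0.4). Across all 9 members the order of mean count per kb in controls was Cdk4 (52356), Ccnd1 (5118), Ccnd3 (2375), Ccne1 (684), Ccne2 (619), Cdk6 (569), Cdk2 (522), Cdc25a (277) and Ccnd2 (119). From Ccne1 to Cdk2 in that order, on this length, each gene overlapped its neighbour in the 2 control values, and the other neighbours did not overlap. In the Zfp292-OE libraries the order was Cdk4 (91882), Ccnd1 (16362), Ccne2 (3222), Ccne1 (3198), Ccnd3 (2052), Cdk2 (2022), Cdk6 (581), Cdc25a (227) and Ccnd2 (41.1). There the values of Ccne2, Ccne1, Ccnd3 and Cdk2 overlapped from each to the next. The middle of both orders rests on the length used. Per kb of all annotated exons the control mean of Ccnd3 was 572, in a run with Ccne2 (532), Ccne1 (514) and Cdk6 (469) whose neighbours all overlapped. On that length Cdk2 (782) stood above Ccnd3 (494) in the Zfp292-OE libraries, without overlap, while Cdk4 and Ccnd1 stayed first and Cdc25a and Ccnd2 last in both groups.

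Cdc25a (Entrez 12530, chromosome 9, 109875518 to 109893895, + strand), the phosphatase that activates Cdk2 at the start of replication, did not pass the test. It read 984 and 1028 in controls and 689, 1100 and 687 in Zfp292-OE libraries 1, 2 and 3. Library 2 lay above both controls and the other two below them. The log2 fold change was -0.32 (SE 0.32, limma adjusted p = 0.52), with a 95% interval from -1.03 to 0.39, so a rise above 1.31-fold lies outside it.

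**Figure D3:**
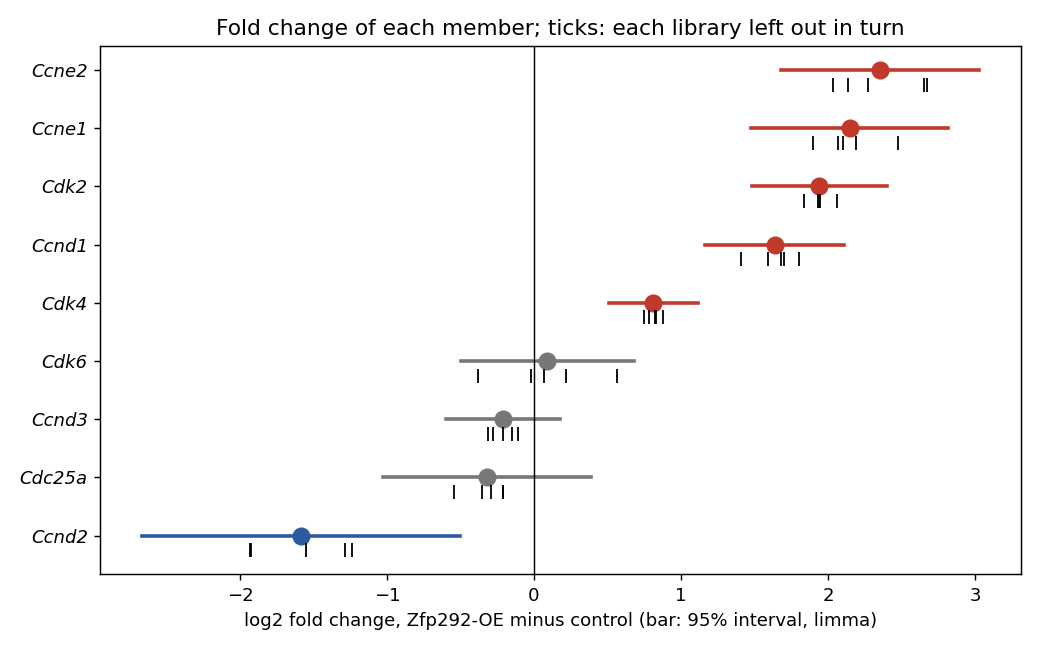
Log2 fold change (horizontal axis, Zfp292-OE minus control) of each gene with its 95% interval from limma; red is called higher, blue lower, grey not past the threshold, and black ticks are the values with each of the 5 libraries left out in turn. The 5 red genes stay at 0.75 or above in all these fits, and the ticks of Cdk6 lie on both sides of 0.

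The 3 Zfp292-OE libraries differed in how far the members moved. Relative to the mean log of the controls, Ccne1 stood at 2.31, 2.65 and 1.49 in libraries 1, 2 and 3, Ccne2 at 2.79, 2.51 and 1.76, and Ccnd1 at 1.51, 2.10 and 1.31. Cdk4 was the most even, at 0.79, 0.88 and 0.78. Library 3 was the lowest of the group for 5 of the 5 members that rose, and library 2 the highest for 4 of them. The same library was lowest for 6 of the 6 later cyclins and Cdk1 that limma called. Over all genes called higher, library 3 was lowest for 60.6% and library 2 highest for 43.7%, and over all tested genes for 35.0% and 32.2%. The members that did not rise had other orders: library 1 was lowest for Ccnd2 and Ccnd3 and library 2 for Cdk6, while Cdc25a was lowest in library 3.

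**Figure D4:**
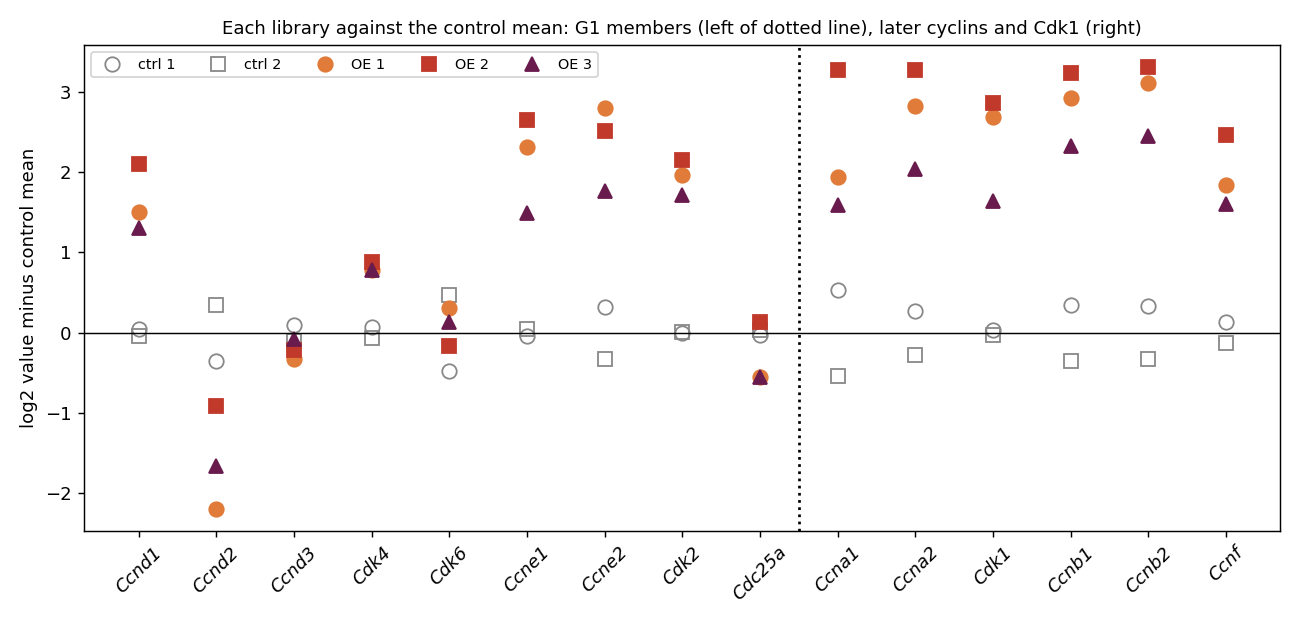
Log2(value + 1) of each library minus the mean of the 2 controls (vertical axis) for the 9 members, left of the dotted line, and for the later cyclins and Cdk1, right of it; open grey symbols are controls and filled symbols Zfp292-OE libraries 1 to 3. Library 3 (triangles) is lowest of its group for all 5 members called higher and for all 6 later genes.

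Around the members, genes of the same pathway were read from lists by role. The cyclins of later phases had the highest median of the 9 lists: of 7 genes for A and B cyclins, cyclin F and Cdk1, 6 were tested and limma called all 6 higher, with a median log2 fold change of 2.55, where edgeR called 5. The exception, named after its values were seen, was Ccna1, a relative of Ccna2, with 85.0 and 40.0 in controls against 227, 570 and 178. Its adjusted p was 0.048 in limma and 0.062 in edgeR, and in limma 0.089 without Zfp292-OE library 1 and 0.14 without library 2. Ccnb2, a mitotic cyclin, went from 5944 and 3768 to 40951, 46959 and 25933 (log2 fold change 2.96, limma adjusted p = 0.00032). Ccnb1 rose by 2.83 on the log2 scale, Ccna2, the cyclin of S phase, by 2.71, and Cdk1, the mitotic kinase, by 2.40. Ccnb3 had too few reads to be tested.

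The E2F family, whose release is the outcome of G1 kinase activity, rose in most members. Among 10 E2F and DP genes limma called 7 higher and 0 lower (median 0.84). The repressors E2f8 (2.56, from 436 and 516 to 3424, 3901 and 1636) and E2f7 (1.76), which are themselves E2F targets, and the E2F partners Tfdp1 (0.89) and Tfdp2 (0.78) had the smallest p-values. Of the 3 pocket proteins, which hold E2F in check, Rbl1 (p107) rose by 2.02, from 1497 and 1730 to 7930, 7417 and 4690. Rb1 had a log2 fold change of 0.50 (limma adjusted p = 0.051, and 0.0083 in DESeq2), and Rbl2 one of -0.40 (limma adjusted p = 0.43).

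Inhibitors of the G1 kinases were mixed. Of 7 INK4 and CIP/KIP genes 6 were tested, of which 2 rose and 1 fell (median 0.06). Cdkn1a, the p21 inhibitor of Cdk2, rose by 1.14 (2149 and 3248 against 6133, 7074 and 4584), and Cdkn2c, an INK4 inhibitor of Cdk4 and Cdk6, by 0.99. Cdkn1c, the p57 inhibitor found in cells leaving the cycle, had a log2 fold change of -0.85 (11385 and 13813 against 6062, 7353 and 7479). Cdkn2c lost its call without Zfp292-OE library 1 (adjusted p = 0.075) or library 2 (0.062) and with equal totals (0.053).

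Regulators of Cdk phosphorylation rose in 6 of 7 genes, with 0 lower and a median of 0.73. Cdc25c, the mitotic relative of Cdc25a, went from 939 and 708 to 5967, 5779 and 3893 (log2 fold change 2.65, limma adjusted p = 0.00039), and Wee1, the kinase that opposes it, rose by 1.84. The parts of the Cdk-activating kinase Cdk7 (0.60) and Mnat1 (0.57) rose by smaller amounts. Cdk7 lost its call with any 1 of the 5 libraries left out (adjusted p = 0.051 to 0.21) and in edgeR (0.053), and Mnat1 with any 1 library but Zfp292-OE library 3 left out (0.063 to 0.12). Both also lost it with equal totals (0.10 for each) and after quantile normalization (0.16 for Cdk7 and 0.12 for Mnat1). In edgeR 3 of the 7 genes were called. Of 10 genes for ubiquitin ligases that degrade G1 cyclins and their inhibitors, 3 were higher and 0 lower (median 0.41). These were Skp2 (1.57) and its cofactor Cks1b (1.45), which together mark p27 for destruction, and the scaffold Cul1 (0.83). edgeR called the same count of 3, and DESeq2 called 5 higher and 1 lower. The lower one, named after its values were seen, was Ambra1, which targets D cyclins for degradation (log2 fold change -1.02, adjusted p = 0.076 in limma, 0.062 in edgeR and 0.033 in DESeq2).

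Cyclins and kinases with other tasks held no gene called by limma, which called 17.4% of all tested genes. Of 11 genes for cyclins and kinases of transcription none was called (median -0.05), and of 11 Cdks and partners outside the cycle, among them Cdk5 of postmitotic neurons, none was called either (median -0.10). At an unadjusted limma p below 0.05 the counts were 3 and 2, where 5351 of all 16316 tested genes had such a p. In edgeR 0 genes of either list were called, and DESeq2 called Ccnc and Ccnl1 of the first and Ccng2 of the second. Of 10 inducers of D cyclins, such as Myc, Mycn, Gli1 and Ctnnb1, none was called in limma (median 0.18), 4 had an unadjusted p below 0.05, edgeR called 0, and DESeq2 called Jun and Ctnnb1.

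**Figure D5:**
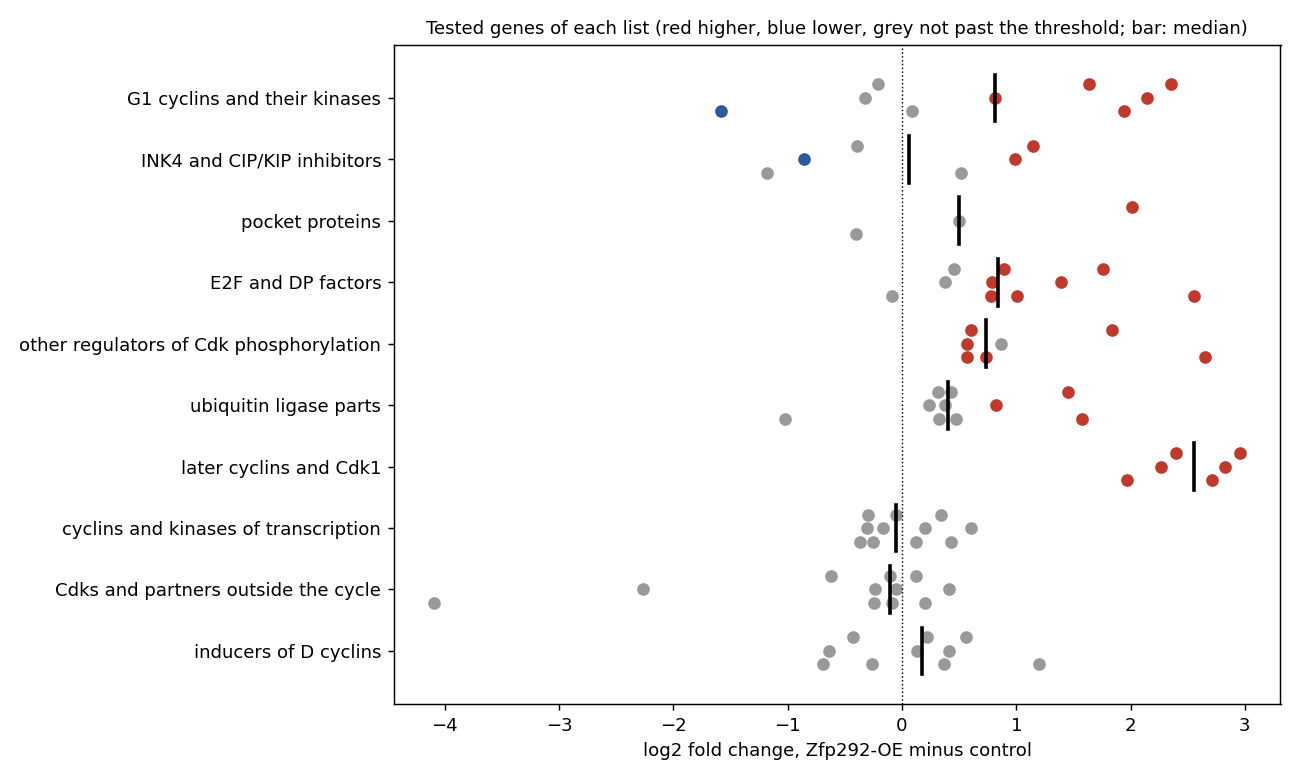
Log2 fold change (horizontal axis, Zfp292-OE minus control) of every tested gene of the 9 members and of each pathway list; red points are called higher, blue lower, grey not past the threshold, and black bars are list medians. All 6 tested later cyclins and Cdk1 are red, with a median of 2.55. The transcription, non-cycle and inducer lists hold no called gene, where 17.4% of all tested genes were called.

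The gene whose 5 log2 values, centred on their mean, lay nearest to each member was taken from 13421 genes with a mean of at least 100. For Cdk2 it was Chaf1b, a subunit of the factor that loads histones on new DNA (distance 0.20), and for Ccne1 it was Anln, the cytokinesis protein anillin (0.17). Ccne2 lay nearest to Ddias (0.31), Ccnd1 to Zfp473 (0.12), which is low at 61.6 to 260 normalised reads, and Cdk4 to Rbmxl1 (0.06). The members that did not rise lay nearest to Galnt17 (Ccnd2, 0.25), Slc2a1, the glucose transporter GLUT1 (Ccnd3, 0.06), Fbxw8 (Cdk6, 0.15) and B4galt2 (Cdc25a, 0.06). With 5 libraries many genes share such a profile.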

How the data were processed

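The deposited table holds a normalised signal per gene for 5 libraries, with 0 columns of other samples. A SMARTER kit and 1.3 µg of total RNA went into the libraries, per the labels' protocols; GRCm38 and mm10 are named in the submitters' processing notes. The sources used here do not name the aligner, counter, annotation or scaling method. Divided by the library's smallest value above 0, every value the authors deposited came out whole (100%, tolerance 1e-06 of a read), so read counts divided by 1 factor per library were recovered. Replicate libraries differed far beyond counting noise.

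Genes with a mean of at least 10 entered a limma fit (3.58.1 in R 4.3.3, with trend) of log2(value + 1), as Zfp292-OE minus control; p-values were adjusted by Benjamini-Hochberg over 16316 genes, threshold 0.05. edgeR 4.0.16 and DESeq2 1.42.0 on the recovered reads, other pseudocounts (0.5, 10), filters (none, 50), scalings, array weights, blocking on replicate number and dropping each library were alternatives. In 5 simulated datasets limma recovered 3.28%, 29.0% and 60.3% of genes changed 1.5-, 2- and 4-fold among 16316. Of its calls there, 11.3% were unchanged genes. Over the 5 datasets together 335, 335 and 330 genes were changed, far fewer per dataset than limma called in the data. These shares therefore need not carry over. Members and lists were chosen with earlier results of these data known. Named list genes are the called ones, or the 4 with the smallest p where more were called; all 3 pocket proteins, Zfp292 and the gene nearest each member are named too. Genes called by DESeq2 alone were named after their values were seen. Coordinates and promoter windows are RefSeq's for GRCm38.p6; lengths, exons and shared words come from GENCODE M21.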

Additional observations from a re-analysis of the deposited data

How the results depend on the processing

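Every member had at least 140 reads in each library; Ccnd2, with the fewest, had the largest SE of the 9 (0.48). Leaving out 1 library gave 1 to 2352 called genes (0 to 1359 higher, 1 to 993 lower) against 2836 (1632 and 1204), 0 to 5 members higher and 0 to 1 lower; the lowest counts came without either control library, where the lone control was assumed to vary like the other libraries, and without Zfp292-OE library 1 there were 1657 called genes. Without a filter 365 of 24594 genes were called, 127 higher and 238 lower, with 1 member (Cdk2) higher and 0 lower. DESeq2 called 1838 genes lower, and equal totals gave 913 higher and 1988 lower. Ccnd2 was not called (0 members lower) with array weights, a pseudocount of 0.5 or quantile normalization. The log2 fold change of Cdk6, 0.09 in limma, was -0.0009 in edgeR, -0.12 with equal totals, -0.028 after quantile normalization, and from -0.38 (without control library 1) to 0.56 (without control library 2) with 1 library left out. For Ccne1 to Ccne2 the difference in log2 ratio ranged from -0.57 to 0.16 with 1 library left out. The cause of these changes was not tested. The 5 members that rose kept their direction in all 16 alternatives, and Ccnd2, Ccnd3 and Cdc25a kept theirs.

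Replicate numbers did not pair the libraries (correlation of deviations -0.04 and -0.03 for numbers 1 and 2), and the groups share only 2 numbers. With a replicate block on those 4 libraries limma called 3196 genes, 1666 higher and 1530 lower, and 5 members higher and 1 lower, with a log2 fold change of 1.80 for Ccnd1 and -1.55 for Ccnd2. Of the named list genes, 259 of 294 values under alternatives other than leaving out a control kept their side of the threshold, and 0 changed direction.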
